A study of Mus musculus with 12 samples.

Results

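The NMDA receptor subunit genes Grin1, Grin2a, Grin2b, Grin2c, Grin2d, Grin3a and Grin3b were examined in somatosensory cortex of P7 mice. They were chosen by gene symbol as the complete gene family and not by a measured value, though with earlier results of these data known. They make up 7 of the 24452 symbols and 10 of the 35840 RefSeq transcripts in the count tables. The data come from stranded total RNA-Seq of male C57BL/6 pups in 4 groups of 3 libraries, 12 in all. WT and p53 KO pups of heterozygous matings received saline, or ethanol at 2.5 g/kg in each of 2 intraperitoneal injections, and cortex was taken 8 hours after the last ethanol injection on postnatal day 7. The KO groups carry the Trp53tm1Tyj allele, a constitutive targeted disruption of the gene that encodes p53, in every cell of the animal. The comparisons ask whether acute ethanol changes the mRNA of the receptor subunits in this tissue, and whether loss of p53 changes the subunits or their response.

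NMDA receptors are glutamate-gated cation channels that assemble from obligatory GluN1 subunits together with GluN2 or GluN3 subunits. GluN1 and GluN3 bind glycine or D-serine, GluN2 binds glutamate, and the GluN2 and GluN3 members set the kinetics, the magnesium block and the calcium entry of the channel. In the developing cortex GluN2B and GluN3A are prominent early, GluN2D is found largely in interneurons, and GluN2A rises as synapses mature. Ethanol is a known inhibitor of these receptors.

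The total estimated count of a library lay between 719735 and 17066392, and the lowest totals were those of KO ethanol replicate 1 (719735) and WT saline replicate 1 (1953154), the only libraries whose names begin with L. In bulk cortex fewer cells of a type and less RNA per cell cannot be told apart. Markers of cortical projection neurons were present in all 12 libraries, but their summed level was not even: it was 1000 to 1329 normalised CPM (the count scaled to the library's total with TMM factors) in WT saline and 987 to 1226 in KO saline, 345, 664 and 1103 in WT ethanol, and 819 to 911 in KO ethanol. The summed level of 5 general neuron markers was 6001 to 7183 in WT saline, above WT ethanol at 3515 to 5369 and KO saline at 4159 to 5803, while KO ethanol had 3517 to 7284. Of these 5 only Tubb3 was itself separated in both comparisons, where the groups did not overlap for 19.6% and 22.9% of all genes. These are the contrasts in which all 6 tested members had a positive fitted difference, and the part of these markers in them was not tested. The vesicular glutamate transporter gene Slc17a7 lay between 182 and 905 normalised CPM, and Gabra6 of cerebellar granule cells was at most 0.37. Trp53 itself was not lower in the libraries labelled KO, with means of 14.8 ± 11.3 (WT saline), 14.0 ± 6.43 (WT ethanol), 16.8 ± 9.35 (KO saline) and 26.7 ± 2.91 normalised CPM (KO ethanol, SD, n = 3). The counts are given per transcript and not per exon, so the level of the gene does not check the disruption. The paper also reports more Trp53 transcript in KO mice, and found by exon that these reads came from outside the deleted region. The transcript NM_001127233 took 7.01% to 23.1% of the Trp53 count in the 6 WT libraries and 65.7% to 70.6% in KO saline. In KO ethanol it took 7.01% of 14 counts in replicate 1, 70.6% in replicate 2 and 48.3% in replicate 3, so at this depth replicate 1 could not be checked.

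Compared per length, Grin1 was the most abundant subunit mRNA and Grin3b the least. The mean of the deposited RPKM over the 12 libraries was 44.1 for Grin1, 12.9 for Grin3a, 3.29 for Grin2d, 3.20 for Grin2b, 1.06 for Grin2a, 0.765 for Grin2c and 0.0302 for Grin3b. Grin1 exceeded Grin3a in 12 of 12 libraries, Grin3a exceeded Grin2d in 12, Grin2b exceeded Grin2a in 12 and Grin2a exceeded Grin2c in 11. The neighbours Grin2d and Grin2b were not separated, since Grin2d was the higher in 5 of 12 libraries and ranked below Grin2b when counts per kilobase were used in place of RPKM. Summed over the 7 genes, RPKM was 49.2 ± 42.6 in WT saline and 69.1 ± 30.4 in WT ethanol, against 74.5 ± 13.4 in KO saline and 69.0 ± 5.13 in KO ethanol (SD, n = 3). The spread was widest in WT saline, where the lowest library had 14.7 and the highest 96.8.

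**Figure D1:**
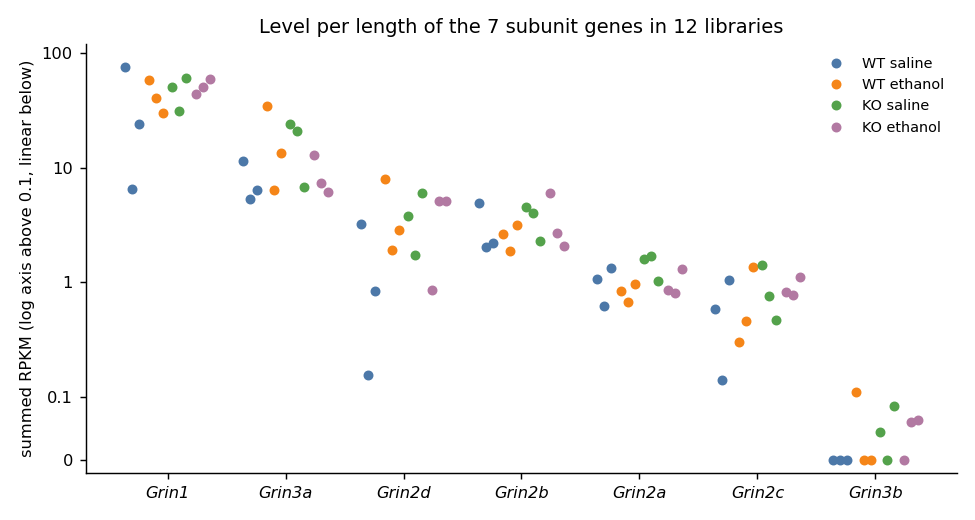
Deposited RPKM summed per gene (vertical axis, logarithmic above 0.1 and linear below) for the 7 subunit genes ordered by their mean, with 1 point per library coloured by group. Grin1 lies highest at 6.48 to 75.6, Grin2d and Grin2b share a range, and Grin3b is listed at 0 in 7 of 12 libraries.

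Grin1 encodes GluN1, the subunit every NMDA receptor needs, and lies on chromosome 2 (mm10, 25291177 to 25319187). In WT saline its level was 370.2, 25.5 and 124.6 normalised CPM, and in WT ethanol 242.6, 183.6 and 147.6. In KO saline it was 218.5, 150.2 and 260.7, and in KO ethanol 219.0, 212.5 and 250.1. The WT saline libraries held both the highest and the lowest value of the 12, so every other group lay inside their range. The log2 fold change fitted in edgeR was 0.15 ± 0.63 (SE) for ethanol in WT, 0.12 ± 0.63 for ethanol in KO and 0.28 ± 0.63 for KO against WT under saline, with adjusted p of 0.918, 0.999 and 0.828. Changes in Grin1 were thus not detectable against a spread of this size.

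The tables hold 3 Grin1 transcripts that differ in the exons behind the known splice forms of GluN1. Their distinguishing exons are shown because the deposited division of the count depends on them, and they were read from GENCODE transcripts of GRCm38 on the minus strand, in lower case throughout. The N1 cassette (chr2:25311343-25311405) is the extracellular exon known to alter proton sensitivity, and only NM_001177656 holds it. The C1 cassette (chr2:25294438-25294548), which carries an endoplasmic reticulum retention signal, and the C2 end (chr2:25292371-25292484) are held by NM_008169 alone, and the C2′ end (chr2:25292063-25292128) by the other transcripts, which both lack C1.
N1 cassette: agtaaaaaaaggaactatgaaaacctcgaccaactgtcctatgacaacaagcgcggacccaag
C1 cassette: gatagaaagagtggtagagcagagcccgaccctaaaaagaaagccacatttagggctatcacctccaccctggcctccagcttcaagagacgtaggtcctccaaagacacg
C2 coding end: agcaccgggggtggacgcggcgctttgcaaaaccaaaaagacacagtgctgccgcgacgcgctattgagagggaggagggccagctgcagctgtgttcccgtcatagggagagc
C2′ coding end: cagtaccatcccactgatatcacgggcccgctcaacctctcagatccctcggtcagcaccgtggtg
NM_008169, the form without N1 and with C1 and C2, took most of the Grin1 count in all 12 libraries, between 57.4% and 87.7%. Its mean share was 76.3% ± 13.6 in WT saline and 73.4% ± 13.9 in WT ethanol, against 82.6% ± 4.22 in KO saline and 74.3% ± 10.9 in KO ethanol (SD, n = 3). NM_001177656 with N1 took 11.8% on average and at least 6.49%, and NM_001177657 with neither N1 nor C1 took 3.98% to 26.7%. The groups overlapped for all 3 transcripts. Short reads from most of the gene fit all 3 forms, so these shares are estimates by the authors' software.

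Grin2a encodes GluN2A, the subunit that rises with synapse maturation, on chromosome 16 (9577710 to 9992533). Its level was 4.1, 2.4 and 5.3 normalised CPM in WT saline and 5.8, 3.5 and 5.0 in WT ethanol, against 8.9, 8.8 and 5.6 in KO saline and 1.7, 5.0 and 7.7 in KO ethanol. The 3 KO saline libraries lay above all 3 WT saline libraries, narrowly (at least 5.61 against at most 5.35), and no other compared pair of groups was separated. In the deposited RPKM these groups overlapped, at 0.622 to 1.32 in WT saline and 1.01 to 1.68 in KO saline. Grin2a was the only member whose groups did not overlap in that comparison, where the groups did not overlap for 22.9% of all genes tested. The fitted log2 fold change of KO against WT under saline was 0.96 ± 0.52 (SE, adjusted p = 0.312 in edgeR), which is not past the threshold of 0.05. Counts were low, from 1 in KO ethanol replicate 1 to 150.

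Grin2b encodes GluN2B, the main GluN2 subunit of immature cortex, on chromosome 6 (135729805 to 136173511). It measured 40.6, 13.0 and 15.1 normalised CPM in WT saline and 26.0, 16.3 and 26.4 in WT ethanol, against 40.9, 35.5 and 20.8 in KO saline and 43.5, 24.9 and 19.9 in KO ethanol. WT saline replicate 1 stood well above the other WT saline libraries, and all groups overlapped. The log2 fold changes were 0.036 ± 0.48 for ethanol in WT, -0.20 ± 0.48 for ethanol in KO and 0.53 ± 0.48 for KO against WT under saline (adjusted p in edgeR 0.976, 0.999 and 0.55). Without the 2 libraries named with L the last of these became 1.14 ± 0.37 with an adjusted p of 0.0421, in a fit where 25.3% of all genes passed that threshold, and with each library's trend in length and GC content removed it was -0.23. The RefSeq annotation now gives Grin2b a genomic span with 16688 bases outside that of the files, and reads from there are not in its count. The same holds for Grin2a (13359 bases) and Grin2d (5113), and for Grin3b, Grin3a and Grin2c with 327, 254 and 54. The levels per length and the share of Grin2a were not adjusted for this.

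The balance of GluN2A and GluN2B is a usual measure of receptor maturation. Grin2a took 26.3% ± 10.1 of the summed RPKM of Grin2a and Grin2b in WT saline and 24.6% ± 1.47 in WT ethanol, against 28.8% ± 2.57 in KO saline and 24.7% ± 13.2 in KO ethanol (SD, n = 3). Differences between groups ran from -4.07 to 2.46 percentage points. None was larger than the pooled SD of the libraries, and the two-sided exact permutation test gave p between 0.7 and 1.0 (1.0 after adjustment over 4 comparisons), where 0.1 is the smallest it allows. Grin1 took 63.1% ± 17.4 of the RPKM of all 7 genes in WT saline and 64.0% ± 12.3 in WT ethanol, against 63.0% ± 13.8 in KO saline and 73.6% ± 6.06 in KO ethanol. The largest difference, 10.5 points between KO ethanol and KO saline, had an exact p of 0.3 (0.6 adjusted).

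Grin2c encodes GluN2C, best known from cerebellar granule cells and astrocytes, on chromosome 11 (115249169 to 115267243). It was among the rarest members at 2.1, 0.55 and 4.5 normalised CPM in WT saline and 2.5, 2.6 and 7.5 in WT ethanol, against 8.7, 4.1 and 3.0 in KO saline and 1.7, 5.1 and 7.3 in KO ethanol. All 4 groups overlapped. Its log2 fold change was 0.77 ± 0.74 for ethanol in WT and 1.07 ± 0.73 for KO against WT under saline, with adjusted p of 0.584 and 0.427 in edgeR.

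Grin2d encodes GluN2D, which gives slow receptors with weak magnesium block, on chromosome 7 (45832483 to 45866681). In WT saline it measured 14.9, 0.55 and 3.3 normalised CPM, and in WT ethanol 40.2, 9.7 and 14.0. In KO saline it measured 20.0, 8.7 and 31.3, and in KO ethanol 1.7, 26.9 and 26.6. The lowest libraries were WT saline replicates 2 and 3 and KO ethanol replicate 1, while WT saline replicate 1 lay within the range of the other groups. Only 3 Grin2d counts were found in WT saline replicate 2 and 1 in KO ethanol replicate 1, so these levels are imprecise. The fitted level was 3.88 times as high in WT ethanol as in WT saline (log2 1.96 ± 0.95, adjusted p = 0.288 in edgeR) and 3.62 times as high in KO saline as in WT saline (log2 1.86 ± 0.95, adjusted p = 0.288). Neither passed 0.05. In KO mice the ethanol difference was 0.015 ± 0.87 on the log2 scale, and the difference between genotypes in the ethanol response was -1.94 ± 1.29 (adjusted p = 0.494).

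Leaving out libraries changed the Grin2d call. Without the 2 libraries named with L, its log2 fold change was 3.27 ± 0.80 for ethanol in WT (adjusted p = 0.0174) and 3.20 ± 0.80 for KO against WT under saline (adjusted p = 0.015), in fits where 21.5% and 25.3% of all genes passed 0.05. Without WT saline replicate 1 alone it was 3.28 (adjusted p = 0.0499) and 3.23 (adjusted p = 0.0391). In that fit 1151 and 2177 of 14996 genes passed 0.05. Without WT saline replicate 2 the Grin2d value was 1.34 (adjusted p = 0.552) and 1.27 (adjusted p = 0.569). Without WT ethanol replicate 1 its ethanol value in WT was 1.11 (adjusted p = 0.665). Markers of interneurons, a known source of GluN2D in cortex, were measured beside it. All 6 markers passed the low-count filter, and their summed level was 261 to 605 normalised CPM in WT saline, 401 to 639 in WT ethanol, 355 to 453 in KO saline and 446 to 1026 in KO ethanol, so these groups overlapped. Within the list the groups did not overlap for 2 of 6 markers for ethanol in WT (Gad1 and Gad2, higher) and for 1 of 6 in KO against WT under saline (Gad1, higher). Over all genes tested the groups did not overlap for 19.6% and 22.9% in these comparisons. Gad1, the gene of a GABA-synthesising enzyme, lay between 74.0 and 94.9 in WT saline, 140 and 172 in WT ethanol, 106 and 114 in KO saline, and 63.5 and 116 in KO ethanol. The part of these markers in the Grin2d values was not tested.

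Grin3a encodes GluN3A, a glycine-binding subunit that lowers calcium entry and is known from immature synapses, on chromosome 4 (49661611 to 49845769). In WT saline it measured 98.7, 36.4 and 45.6 normalised CPM, and in WT ethanol 280.2, 57.1 and 115.7. In KO saline it measured 207.4, 185.5 and 63.4, and in KO ethanol 98.6, 68.8 and 58.4. The high libraries were WT ethanol replicate 1 and KO saline replicates 1 and 2, and all 4 groups overlapped. The fitted level was 2.53 times as high in WT ethanol as in WT saline (log2 1.34 ± 0.59, adjusted p = 0.249 in edgeR) and 2.54 times as high in KO saline as in WT saline (log2 1.35 ± 0.59, adjusted p = 0.232). These comparisons share the WT saline libraries. In KO mice the ethanol difference had the opposite sign, at -1.03 ± 0.59 (adjusted p = 0.999), and KO against WT after ethanol was -1.02 ± 0.59 (adjusted p = 0.982).

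The difference between the genotypes in the ethanol response of Grin3a was -2.37 ± 0.83 on the log2 scale (adjusted p = 0.252 over 14739 genes in edgeR). It did not pass 0.05 but passed the adjusted level of 0.30 that the study's methods use for RNA-Seq. The Grin3a calls at 0.30 changed when single libraries were left out. Of 12 such fits, 4 passed for the interaction, 7 for ethanol in WT and 8 for KO against WT under saline. Without WT ethanol replicate 1 the ethanol difference in WT was 0.53 ± 0.55 (adjusted p = 0.717) and the interaction -1.53 ± 0.74 (adjusted p = 0.476). In that fit 71 and 0 of 14908 genes passed 0.30. Without WT ethanol replicate 2 the interaction was larger, at -2.67 ± 0.77, but its adjusted p was 0.334, where 112 of 15026 genes passed 0.30. WT ethanol replicate 1 also had the highest summed level of 4 thalamic markers (639 normalised CPM, against 39.1 to 107 in the other 11 libraries) and of 4 choroid plexus markers (4989, with 0 for all of them in KO ethanol replicate 1). All 4 markers of each list passed the low-count filter. By group, the thalamic sum was 39.1 to 107 in WT saline, 69.5 to 639 in WT ethanol, 50.5 to 70.6 in KO saline and 41.8 to 94.2 in KO ethanol, and the choroid plexus sum was 3.6 to 119, 22.1 to 4989, 27.1 to 2251 and 0 to 2206. The same library had the highest sum of 3 hippocampal markers (114, at most 45.8 in the others) and the lowest of the projection neuron markers, and the 5 striatal markers peaked in WT ethanol replicate 2 (808, at most 351 in the others). The part of these lists in the Grin3a level was not tested.

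**Figure D2:**
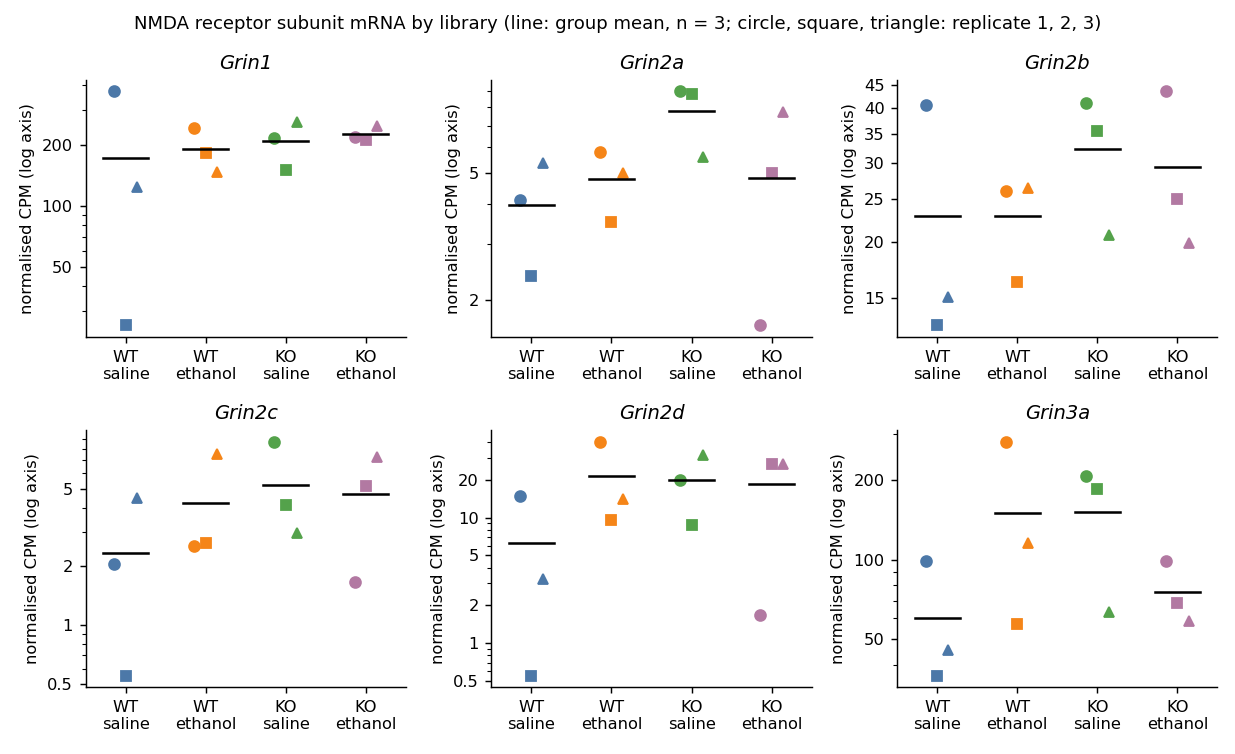
Normalised CPM on a logarithmic axis for the 6 subunit genes that passed the low-count filter, in the 4 groups of 3 libraries, where symbols mark replicates and the line the group mean. For Grin3a the libraries of WT ethanol range from 57.1 to 280.2 and overlap all other groups, and for Grin2d the lowest WT saline library lies at 0.55.

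Grin3a is listed as 2 transcripts. They differ by a stretch of 60 coding bases at exon 9 (chr4:49665566-49665625, GRCm38, minus strand) that NM_001276355 holds and NM_001033351 lacks, shown here because it alone separates the coding sequences.
Grin3a exon 9 stretch: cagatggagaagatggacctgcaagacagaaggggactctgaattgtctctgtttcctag
The deposited division between them was the same within 0.01 percentage points in 5 of 12 libraries, with 59.45% for NM_001033351, although the Grin3a count of these 5 ran from 59 to 871. They were the 3 WT saline libraries and KO ethanol replicates 1 and 2. In the other 7 libraries NM_001033351 took between 44.9% and 55.3%. Fitted alone, NM_001276355 had an interaction of -2.80 ± 0.83 (adjusted p = 0.221 over 21715 transcripts in edgeR) and NM_001033351 one of -2.02 ± 0.87 (adjusted p = 0.301). In the 5 libraries with the same division, each transcript's count is a fixed share of the gene count. The 2 fits are therefore not separate measurements, and the shares are estimates by the authors' software. The difference between the transcripts was not tested.

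Grin3b encodes GluN3B, known mainly from motor neurons, on chromosome 10 (79970724 to 79977190). It had 0 counts in 7 of 12 libraries, among them all 3 of WT saline, and at most 12 counts, in WT ethanol replicate 1. In the libraries without a count, 0 allows up to 3 counts, that is 0.176 to 4.17 CPM before TMM scaling, for counting error only. Grin3b did not pass the low-count filter and was not compared between groups.

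Across the family no member passed an adjusted p of 0.05 in edgeR in any of the 5 contrasts, among the 6 members and 14739 genes tested. DESeq2 and limma on RPKM gave 0 members as well. With DESeq2 3.31% of all genes passed for ethanol in WT, 4.86% for KO against WT under saline and 1.73% for the interaction. In edgeR the share of all genes past that threshold was 0.0746% for ethanol in WT, 0.0543% for KO against WT under saline, and 0% for ethanol in KO, for KO against WT after ethanol and for the interaction. At the adjusted level of 0.30, 2 of 6 members (Grin2d and Grin3a) passed for ethanol in WT, beside 22.5% of all genes, and the same 2 passed for KO against WT under saline, beside 25.8%. For the interaction 1 of 6 (Grin3a) passed beside 11.1%, and for ethanol in KO and KO against WT after ethanol 0 of 6 beside 0%. At an unadjusted p under 0.05 Grin3a was the only member, for ethanol in WT (background 18.3%), for KO against WT under saline (19.6%) and for the interaction (15.2%), and 0 members were found for ethanol in KO (3.15%) and KO against WT after ethanol (3.24%). With groups that did not overlap there were 0 members for ethanol in WT (19.6% of all genes), ethanol in KO (10.8%) and KO against WT after ethanol (12.7%).

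All 6 members had a positive fitted difference for ethanol in WT and for KO against WT under saline, with medians of 0.52 and 1.02 on the log2 scale, against 0.059 and 0.041 over all genes. In KO mice 3 were positive and 3 negative after ethanol (median -0.092, all genes 0.0082), and KO against WT after ethanol had 4 positive and 2 negative (median 0.22, all genes -0.035). The interaction was negative for all 6 (median -0.76, all genes -0.11). These signs did not all hold with each library's trend in length and GC content removed, since Grin1, Grin2a and Grin2b were then -0.080, -0.25 and -0.69 for ethanol in WT, Grin2b -0.23 for KO against WT under saline, and Grin1 and Grin2b 0.46 and 1.06 for the interaction. The trend at the members differed by 0.53 to 0.91 for ethanol in WT and by 0.53 to 0.95 for KO against WT under saline. Ethanol in WT, KO against WT under saline and the interaction share the 3 WT saline libraries, so they are not separate observations. The counts at 0.30 rest on 6 genes and are not read as apart from the background.

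**Figure D3:**
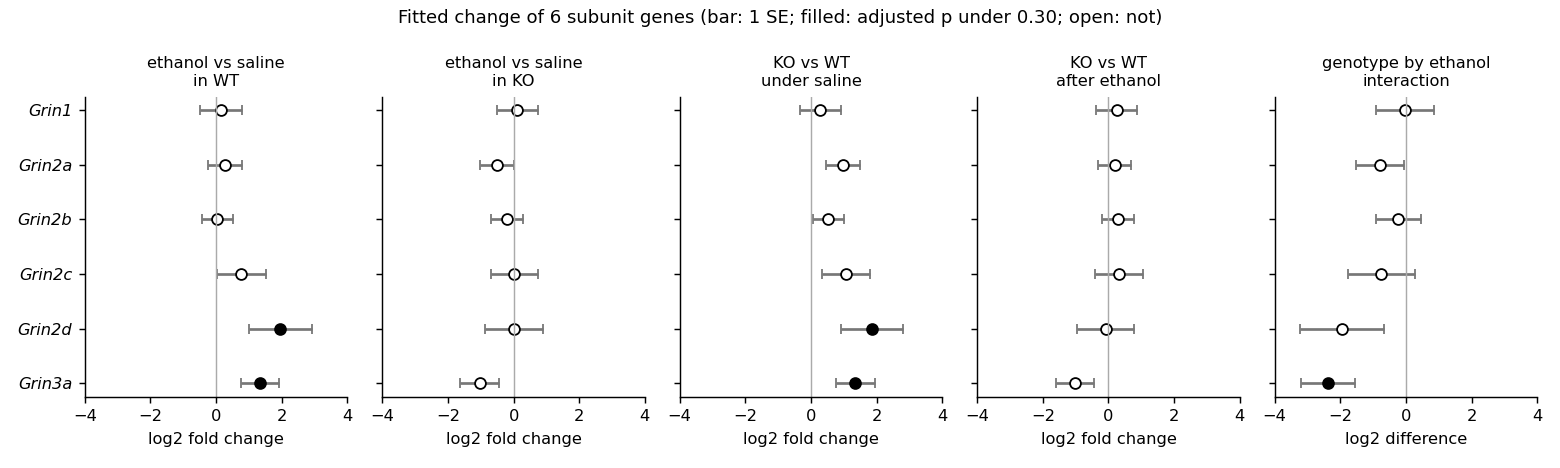
Fitted log2 fold changes with 1 SE (horizontal axis) of the 6 tested subunit genes in the 4 pairwise comparisons and the interaction, with filled points at an adjusted p under 0.30. Grin2d and Grin3a are filled for ethanol in WT and for KO against WT under saline, and Grin3a alone for the interaction at -2.37, and no point passed 0.05.

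The libraries differed in how their counts followed transcript length and GC content, and all 10 subunit transcripts are longer than the lower length quartile of the genes tested, 5 of them longer than the upper quartile (4433 bases). Genes in the longest quartile were lower than those in the shortest by 1.31 on the log2 scale in WT saline replicate 2, by 0.73 in WT saline replicate 3 and by 0.99 in KO ethanol replicate 1, relative to the mean library. The transcripts of Grin1, Grin2c, Grin2d and Grin3b, at 58.6% to 65.0% GC, lie above the upper GC quartile (55.15%). The highest GC quartile minus the lowest was -1.26 in WT saline replicate 2, -0.98 in KO saline replicate 2 and -0.32 to 0.79 in the other libraries. The trend at the Grin3a transcript differed by 0.85 between WT ethanol and WT saline and by 0.88 between KO saline and WT saline. With the trends removed, the Grin3a difference was 0.44 ± 0.59 for ethanol in WT (adjusted p = 0.714), 0.51 ± 0.59 for KO against WT under saline (adjusted p = 0.689) and -0.70 ± 0.85 for the interaction (adjusted p = 0.771). For Grin2d, where the trend differed by 0.91 and 0.95, the values were 1.43 ± 0.52 (adjusted p = 0.238), 1.41 ± 0.52 (adjusted p = 0.278) and -1.50 ± 0.71 (adjusted p = 0.493). Grin3a thus no longer passed 0.30 in the 3 contrasts, while Grin2d still passed it in the first 2. Of all genes, 13.2%, 8.28% and 0.165% passed it with the trends removed, against 22.5%, 25.8% and 11.1% as reported.

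**Figure D4:**
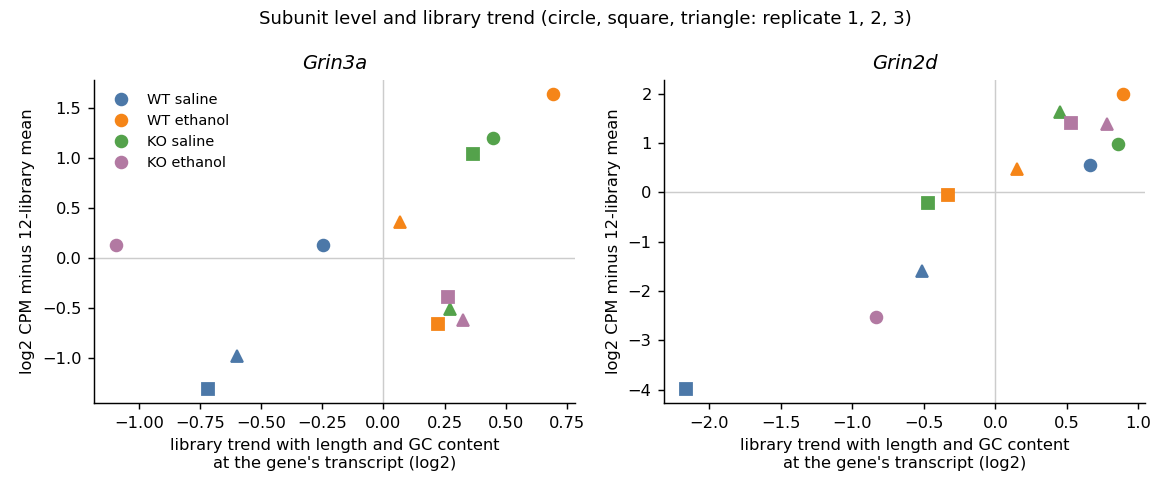
Level of Grin3a (left) and Grin2d (right) in each of the 12 libraries as log2 CPM minus the mean (vertical axis) against the library's trend with length and GC content at that transcript (horizontal axis, log2). WT saline replicate 2 lies lowest on the vertical axis in both panels, and WT saline replicates 2 and 3 and KO ethanol replicate 1 are the 3 lowest on the horizontal axis.

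The partners of the receptor were counted from a list of 52 genes in 6 roles, of which 51 were tested. This list was written with earlier results of these data known. For ethanol in WT, 10 were higher and 2 lower at an adjusted p under 0.30 (23.5%), and for KO against WT under saline 11 were higher and 1 lower (23.5%), beside 22.5% and 25.8% of all genes. For the interaction 2 were positive and 7 negative (17.6% beside 11.1%), and in the other contrasts none passed. Their median log2 difference was 0.20 for ethanol in WT (all genes 0.059), -0.25 for ethanol in KO (0.0082), 0.28 for KO against WT under saline (0.041), -0.21 for KO against WT after ethanol (-0.035) and -0.53 for the interaction (-0.11).

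Past 0.05 were the calcium-regulated Ras exchange factor gene Rasgrf1 for ethanol in WT and the postsynaptic scaffold gene Shank2 for KO against WT under saline. The paper lists both genes among its most significant for the same contrasts of these data. Rasgrf1 rose from 7.85 ± 2.03 normalised CPM in WT saline to 62.1 ± 27.1 in WT ethanol (log2 2.97 ± 0.45 SE, adjusted p = 0.0303 in edgeR) and was 21.1 ± 5.01 in KO saline and 44.9 ± 19.4 in KO ethanol (SD, n = 3). Shank2 was higher in KO saline at 74.1 ± 11.8 than in WT saline at 8.81 ± 5.62 (log2 3.14 ± 0.52, adjusted p = 0.0477), and measured 59.0 ± 6.20 in WT ethanol and 43.3 ± 23.1 in KO ethanol.

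The scaffold genes Shank1 and Shank3, which anchor the receptor complex, had log2 differences of 2.44 and 1.57 for ethanol in WT and of 2.78 and 1.29 for KO against WT under saline, with adjusted p in edgeR from 0.176 to 0.232. Lin7a and Neto1, an adaptor and an auxiliary protein of glutamate receptors, differed by 0.95 and 0.86 for ethanol in WT and by 0.92 and 0.84 under saline. For ethanol in WT the kinase genes Camk2a (1.02) and Camk2d (1.54) and the phosphatase gene Ptpn5 (0.80) also passed 0.30, as did Cdk5 (-0.73) and Lin7b (-1.07). For KO against WT under saline Camk2a (0.84), Camk2g (0.60), Prkca (0.72) and Cdk5 (-0.80) passed it. Among the partners reported here, the interaction passed it for Shank2 (-3.53), Shank1 (-2.73), Camk2d (-1.94), Rasgrf1 (-1.92), Neto1 (-1.43), Lin7a (-1.37), Cdk5 (1.38) and Lin7b (2.43). In the contrasts without a passing partner the smallest p were those of Creb1 (-1.37) and Lin7b (1.36) for ethanol in KO and of Camk2d (-1.66) and Slc17a6 (-2.37) for KO against WT after ethanol, with adjusted p of 0.982 or more. The partner genes were fitted under the reported settings only, and the part of the length and GC trends in their values was not tested.

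**Figure D5:**
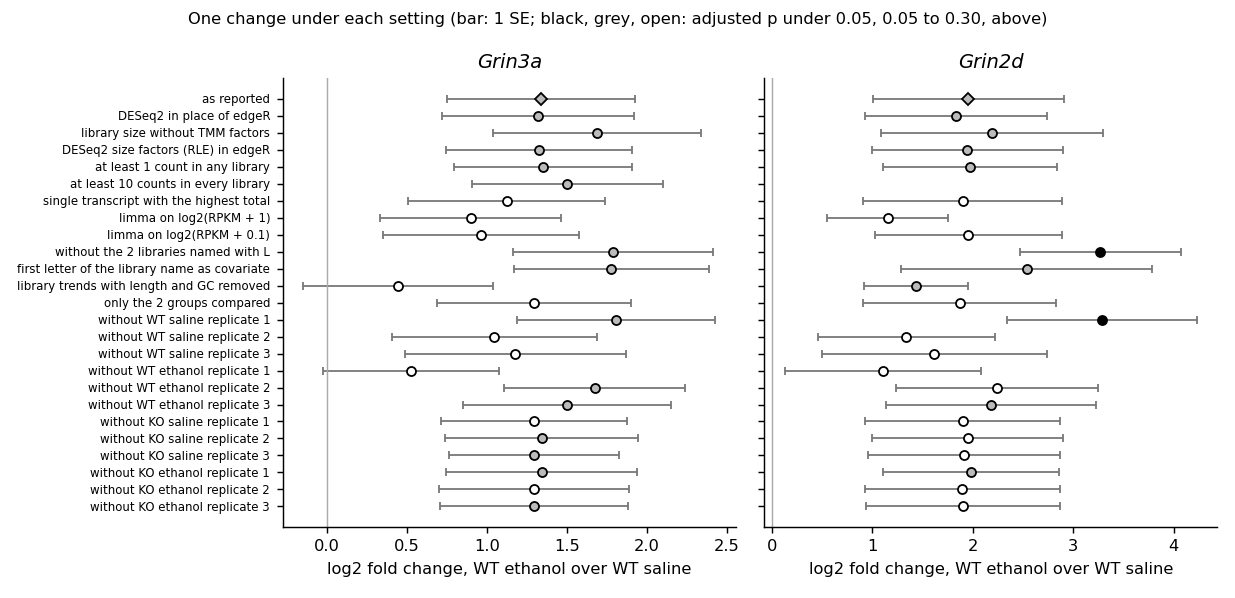
Log2 fold change with 1 SE (horizontal axis) of Grin3a and Grin2d for WT ethanol over WT saline, as reported (diamond) and under each other setting (1 line each), with black for an adjusted p under 0.05, grey for 0.05 to 0.30 and open above. All values are positive, and only the Grin2d fits without the 2 libraries named with L and without WT saline replicate 1 are black, at 3.27 and 3.28. In these 2 fits 3220 of 14967 and 1151 of 14996 genes passed 0.05.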

How the data were processed

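Stranded total RNA-Seq of P7 somatosensory cortex was analysed in 12 libraries, 3 per group. The authors removed reads of low quality, aligned single-end reads to mm10 with TopHat (Bowtie2) and used Partek Flow to quantify RefSeq transcripts, with 1 library per file. The deposited estimated counts per transcript hold fractions (43.2% to 45.5% of nonzero values were whole) and are not scaled to depth. RPKM values deposited by the authors for these transcripts have sorted values that coincide within 0.1% at 99.75% of ranks, so they had been quantile normalised. RNA came by laser microdissection or hole-punch, which could not be assigned to libraries.

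Counts were summed per gene symbol and rounded. In edgeR 4.0.16 (R 4.3.3), 14739 of 24452 symbols passed filterByExpr and were fitted with TMM factors and 1 mean per group by the two-sided quasi-likelihood test, with Benjamini-Hochberg adjustment over all genes. Calls use an adjusted p under 0.05, and the methods' level of 0.30 was also counted. Replicates are numbered by the order of the samples. The labels do not say that each library is 1 mouse, so p-values measure the spread between these samples. Shares of RPKM were compared by exact permutation in scipy 1.17.1. Lengths, GC content and sequences came from GENCODE on GRCm38. Antisense and overlapping genes at Grin1, Grin3a and Grin3b are listed with their own counts.

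The named genes were all members, their transcripts, Trp53, and partner genes at an adjusted p under 0.30 (or the 2 smallest p where none passed). Some partner genes that met this rule are counted but not reported here by name. The members and lists were chosen with earlier results of these data known. Alternatives were DESeq2 1.42.0, no TMM, RLE size factors, other filters, single transcripts, limma 3.58.1 on log2 RPKM with a pseudocount of 1 or 0.1, a covariate for the letter that opens a library's name, removal of length and GC trends (splines, 5 degrees of freedom), only the groups compared, and leaving out libraries. The fits were tested on simulated data. Analyses of cortical layers and of other regions were not used here.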

Additional observations from a re-analysis of the deposited data

Results flagged for a closer look

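The response of Grin3a to ethanol differed between the genotypes at the adjusted level of 0.30. The ethanol log2 fold change in KO minus that in WT was -2.37 ± 0.83 (SE, adjusted p = 0.252 in edgeR, with 11.1% of all genes past that level). The level was higher in 2 of 3 WT ethanol libraries than in all WT saline libraries, and lower in all 3 KO ethanol libraries than in 2 of 3 KO saline libraries. Over the other settings the value ran from -3.13 to -0.70, and the adjusted p from 0.0859 to 0.771. The value of -0.70 was that with length and GC trends removed. Of 12 fits that each left out a single library, 4 passed 0.30. Groups of 3 libraries are too small to single out a library as an outlier.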

How the results depend on the processing

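Of 699 refits of a member's log2 fold change, 631 kept the direction and the side of an adjusted p of 0.05, 5 kept the direction and passed 0.05, and 63 changed sign. No member passed 0.05 as reported, so keeping the side meant only not passing it. The refits share most of their libraries, and some left out a library outside the contrast, so these counts are not independent support. None of the values that changed sign was past 0.05, and the causes were not tested. For Grin2a and Grin2b against ethanol in WT the values were -0.12 and -0.13 with limma on log2(RPKM + 1), and -0.21 and -0.16 with log2(RPKM + 0.1); for Grin2d against ethanol in KO -0.12 and -0.23, and for the Grin2b interaction 0.065 and 0.060. DESeq2 gave -0.017 for Grin2d against ethanol in KO and 0.032 for the Grin1 interaction, and RLE factors gave 0.030 for the latter. With single transcripts, Grin1, Grin2c and Grin2d against ethanol in KO were -0.029, -0.014 and -0.012. With the first letter as covariate, Grin1 and Grin2d against ethanol in KO were -0.18 and -0.052, and Grin1 and Grin2b in KO against WT after ethanol -0.050 and -0.12. Fitting only WT saline and WT ethanol gave -0.0028 for Grin2b. Without the 2 libraries named with L, Grin2b and Grin2d in KO against WT after ethanol were -0.039 and 0.33. With length and GC trends removed, Grin1, Grin2a and Grin2b against ethanol in WT were -0.080, -0.25 and -0.69, Grin2b, Grin2c and Grin2d against ethanol in KO 0.37, -0.14 and -0.070, Grin2b in KO against WT under saline -0.23, and the Grin1 and Grin2b interactions 0.46 and 1.06.

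The members past an adjusted p of 0.05 were 0 of 6 as reported. Without the 2 libraries named with L they were 1 for ethanol in WT and 2 for KO against WT under saline. In these contrasts 21.5% and 25.3% of all genes then passed 0.05. At 0.30 the counts of 2, 2 and 1 (ethanol in WT, KO against WT under saline, interaction) became 0, 0 and 0 with either limma fit and with the single transcript of highest total per gene, 1, 1 and 0 with the trends removed, 4, 5 and 3 without the 2 libraries named with L, and 1 and 1 with at least 10 counts in every library. For Grin3a that single transcript was NM_001033351. The other, NM_001276355, had adjusted p of 0.205, 0.189 and 0.221 in edgeR in these contrasts. As reported, 22.5%, 25.8% and 11.1% of all genes passed 0.30, and 55.4%, 56.4% and 28.9% without the 2 libraries named with L. The shares were 2.42%, 2.84% and 0.109% with limma on log2(RPKM + 1) and 1.26%, 1.74% and 0.0339% with log2(RPKM + 0.1). With the trends removed they were 13.2%, 8.28% and 0.165%, and of single transcripts 21.5%, 23.8% and 12.1% passed. With at least 10 counts in every library, where 3 members were tested, 27.4% and 35.5% of all genes passed. The interaction count was 0 with the first letter as covariate, where 0% of all genes passed. Fits to only the groups compared gave 0 and 1, beside 0.278% and 18.1% of all genes.

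Leaving out each library in turn, the counts at 0.30 ran from 0 to 3, 0 to 5 and 0 to 2, and those at 0.05 from 0 to 1 in the first 2 contrasts, where Grin2d passed without WT saline replicate 1. Over the same fits the genes past 0.30 ran from 71 of 14908 to 7304 of 14996 for ethanol in WT. Under saline they ran from 9 of 15036 to 7556 of 14996, and for the interaction from 0 of 14908 to 5064 of 14996. The highest counts, of members and of all genes, were those without WT saline replicate 1. For ethanol in WT, Grin2d and Grin3a both passed 0.30 only without KO ethanol replicate 1, WT ethanol replicate 3 or WT saline replicate 1. Under saline both passed only without KO ethanol replicate 1, WT ethanol replicate 1 or WT saline replicate 1. The Grin3a interaction passed only without KO ethanol replicate 3, KO saline replicate 3, WT ethanol replicate 3 or WT saline replicate 1. The log2 ranges that crossed 0 were, for Grin1, -0.38 to 1.28 (ethanol in WT), -0.079 to 0.34 (ethanol in KO), -0.23 to 1.44 (under saline) and -1.15 to 0.50 (interaction). For Grin2a they were -0.044 to 0.62 (ethanol in WT) and -0.23 to 0.41 (after ethanol), and for Grin2c -0.35 to 0.59 (ethanol in KO) and -0.038 to 1.03 (after ethanol). For Grin2b they were -0.26 to 0.65 (ethanol in WT), -0.53 to 0.066 (ethanol in KO), -0.034 to 0.58 (after ethanol) and -0.84 to 0.061 (interaction), and for Grin2d -0.35 to 0.52 (ethanol in KO) and -0.36 to 0.78 (after ethanol). The shares of Grin2a and Grin1 moved by less than the pooled SD under every setting run. Among the tested members depth limits Grin2a, Grin2c and Grin2d most, with 1 count each in KO ethanol replicate 1. No paired analysis was possible because the labels give the groups no shared replicate numbers.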

Other observations

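For each tested member, the genes whose level followed it most closely were listed by Pearson's r of log2 CPM over the 12 libraries, among 10063 or 10064 genes with a mean of at least 10 CPM. They were Hgs (0.989) and Mad1l1 (0.987) for Grin1, Hif1an (0.883) for Grin2a beside a symbol that the tables list in a date form, Kcnip3 (0.956) and Mfhas1 (0.927) for Grin2b, and Nsmf (0.94) and 5031439G07Rik (0.913) for Grin2c. For Grin2d they were Dhx38 (0.986) and Srcin1 (0.983), and for Grin3a Specc1 (0.973) and Arhgap35 (0.957). All 12 points share their libraries, depths and trends with length and GC content, so these values describe the libraries and are given without a test.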
